A study of Homo sapiens with 25 samples.

Results

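The genes described here are 32 genes of cholesterol synthesis and sterol transport, chosen by name from the pathway as it is usually drawn and found by matching the Ensembl identifiers of the deposited expression table to gene symbols. All 32 were among the 60179 genes of that table, 18 of them enzymes of synthesis and 14 of them genes of uptake, release, transfer, efflux and sterol sensing. They were measured in HEC-1A cells, an established epithelial line from a human endometrial adenocarcinoma, labelled wild type, which were either untreated or exposed to 20 µM of the cannabinoid THC (tetrahydrocannabinol). RNA-seq had 3 untreated libraries, 3 libraries after 24 h of THC and 3 after 72 h, and so had ATAC-seq, in which a transposase tags open chromatin. CUT&RUN for H3K4me3, a histone mark of active gene starts, had 3 untreated and 3 THC libraries. The labels of the untreated libraries give no time, those of the H3K4me3 THC libraries give no duration, and no vehicle is named for the untreated cells, so length of exposure and time in culture cannot be told apart. The IgG sample of the CUT&RUN set was not analysed here. The libraries are called biological replicates in the labels, but no source states separate cultures, and the p-values therefore reflect only how much these libraries varied.

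Cholesterol is built by a chain of enzymes from acetyl-CoA through mevalonate, the isoprenoid farnesyl pyrophosphate, squalene and lanosterol. When the endoplasmic reticulum is poor in sterol, the transcription factors SREBF1 and SREBF2 are carried by SCAP to the Golgi, are cut there and switch on the synthesis genes together with the receptors that take up lipoproteins. When sterol is plentiful, INSIG proteins hold that complex back, and oxysterols activate the liver X receptors, which drive export of cholesterol. Sterol taken up with lipoproteins is freed in the lysosome and handed on by transfer proteins.

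Values are TPM (a transcript level scaled for length, with the same total in every library), so depth is unknown. Fold changes were taken on log2(TPM + 1), where those of genes with low values come out too small. A gene was called when limma's Benjamini-Hochberg adjusted p, over the 13753 genes with a mean of at least 1 TPM, was under 0.05. The 8 epithelial markers, among them EPCAM, KRT8 and KRT18, were all tested and together amounted to 3105 to 3233 TPM in untreated libraries, 5153 to 5410 TPM at 24 h and 3869 to 4121 TPM at 72 h. Of the 7 immune, 7 stromal and 6 endothelial markers, only COL1A1 passed the expression filter. Their sums reached at most 1.96 TPM for immune, 4.93 TPM for stromal and 0.373 TPM for endothelial markers in any library, and PTPRC, LUM and DCN were listed at 0 in every untreated library. The 37 mitochondrially encoded genes fell in sum from 74166 ± 3652 TPM (SD, n = 3) to 33721 ± 614 TPM at 24 h and 12967 ± 1153 TPM at 72 h. Their part in the member values was addressed by rescaling every library without them. In bulk RNA, fewer cells expressing a gene and less RNA per cell cannot be told apart. Over all tested genes the median change was -0.23 at 24 h, 0.06 at 72 h and 0.26 between the THC times, so changes are set beside these shifts.

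At both THC times every enzyme of cholesterol synthesis in the list was lower than in untreated cells, while the transport genes moved both ways. The 18 synthesis genes together amounted to 1996, 2034 and 1973 TPM in the untreated libraries, 879, 894 and 878 TPM at 24 h, and 879, 892 and 875 TPM at 72 h. The sum was thus 44.2% of its untreated level at 24 h and 44.1% at 72 h, and the treated libraries did not overlap the untreated ones. In each of the 18 genes the treated libraries lay below all untreated ones, as they did for 52.8% of all tested genes at 24 h and 35.0% at 72 h. Of the 30 members that passed the expression filter (all but the exporters ABCA1 and ABCG1), 24 fell and 4 rose at 24 h, where 51.7% of all tested genes fell and 25.0% rose. At 72 h 22 fell and 5 rose, where 33.0% of all tested genes fell and 40.1% rose. The 18 synthesis genes all fell at both times, with median log2 changes of -1.22 and -1.22 against -0.23 and 0.06 over all tested genes. Falls of at least 2-fold were called for 14 members at each time, 11 of them synthesis genes at 24 h and 12 at 72 h. Such falls were called for 10.6% of all tested genes at 24 h and 5.56% at 72 h. Both comparisons share the untreated libraries, and the members were chosen with earlier results of these data known. With each library centred on its own median, the 18 synthesis genes again all fell at both times, with medians of -0.999 and -1.31.

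**Figure D1:**
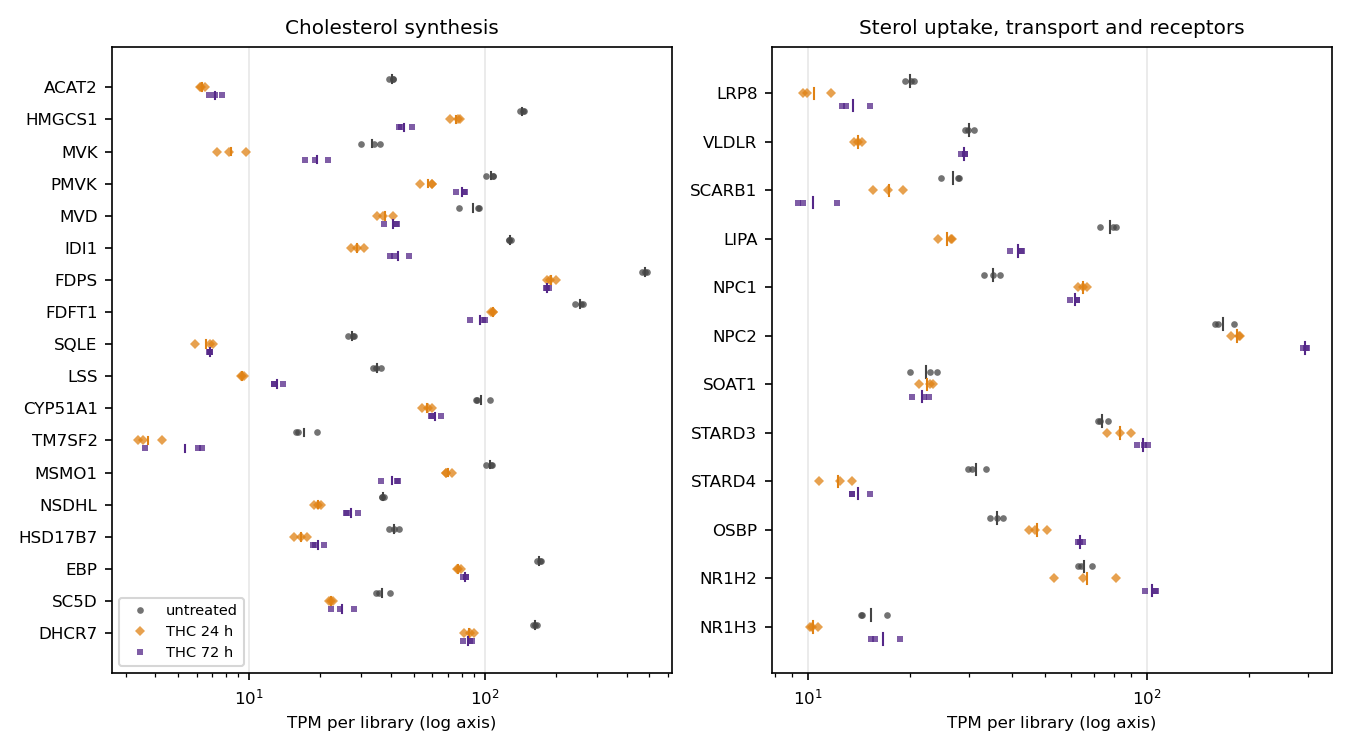
TPM per library (horizontal log axis) of the 18 synthesis genes on the left and the 12 tested transport and receptor genes on the right, with 1 point per library, short vertical lines at group means, circles for untreated, diamonds for THC 24 h and squares for THC 72 h. For each synthesis gene the treated points lie to the left of all 3 untreated points, and NPC1, NPC2, STARD3, OSBP and NR1H2 are the other members whose 72 h points lie to the right of all 3 untreated points.

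**Figure D2:**
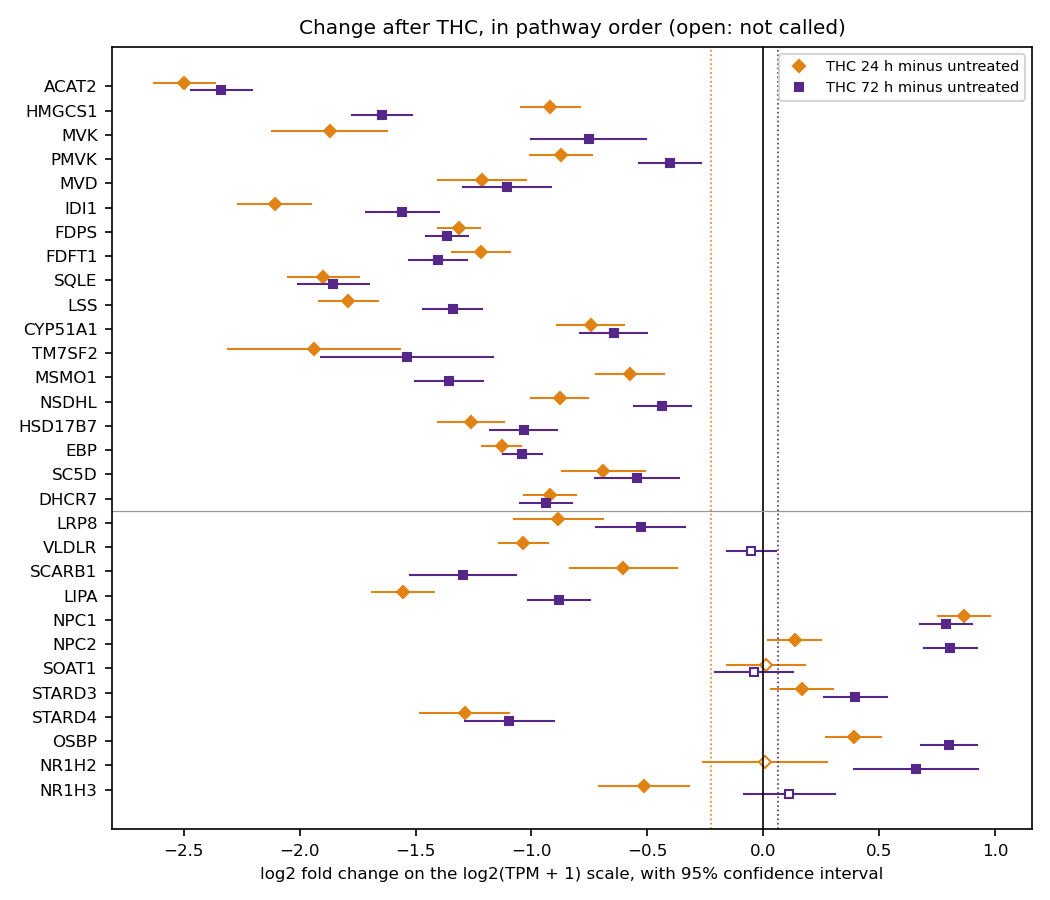
Log2 fold change (horizontal axis, log2(TPM + 1) scale) of the 30 tested members in pathway order, with 95% confidence intervals, diamonds for 24 h and squares for 72 h against untreated, open symbols for changes that were not called, and dotted lines at the medians of all tested genes (-0.23 and 0.06). The 18 genes above the grey line are the synthesis enzymes, which lie left of 0 at both times, from -2.50 to -0.40.

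In the first part of the pathway, ACAT2, the thiolase that joins 2 acetyl-CoA, showed the deepest fall of any member at both times. It stood at 39.3, 40.9 and 40.9 TPM in the untreated libraries, 6.25, 6.20 and 6.53 TPM at 24 h and 6.76, 7.66 and 7.16 TPM at 72 h, so all treated libraries lay far below all untreated ones. Its log2 change was -2.50 ± 0.059 (SE, adjusted p = 3.72e-10) at 24 h and -2.34 ± 0.059 (adjusted p = 5.21e-10) at 72 h. The RefSeq extent of ACAT2 overlaps SOD2, SOD2-OT1 and TCP1, so its reads may not all be its own. HMGCS1, the synthase that adds a further acetyl-CoA, went on falling between the times. Its levels were 141, 147 and 145 TPM untreated, 71.6, 77.2 and 79.0 TPM at 24 h and 43.3, 49.1 and 44.3 TPM at 72 h, with no overlap between any of the 3 groups. It fell by 0.92 ± 0.057 at 24 h and by 1.65 ± 0.057 at 72 h (adjusted p = 2.00e-07 and 3.93e-09).

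The 5 enzymes from mevalonate to farnesyl pyrophosphate fell at both times, and 3 of them were less low at 72 h than at 24 h. MVK, mevalonate kinase, stood at 34.1, 35.9 and 29.9 TPM untreated, 9.75, 8.21 and 7.29 TPM at 24 h and 21.6, 17.3 and 19.2 TPM at 72 h. Its 3 groups did not overlap, the 72 h libraries lying between the others. Its log2 change was -1.87 ± 0.11 at 24 h (adjusted p = 1.47e-07) and -0.75 ± 0.11 at 72 h (adjusted p = 1.36e-04). IDI1, the isomerase that interconverts the isoprene building blocks, was at 129, 127 and 127 TPM untreated, 27.0, 30.9 and 28.7 TPM at 24 h and 39.7, 47.6 and 41.2 TPM at 72 h. Its mean was thus 22.6% of untreated at 24 h and 33.6% at 72 h, with log2 changes of -2.11 and -1.56 (adjusted p = 3.12e-09 and 2.49e-08). PMVK, which adds the second phosphate, followed the same order with means of 106 ± 3.87, 57.6 ± 3.88 and 80.1 ± 4.01 TPM (SD, n = 3 each). FDPS, the farnesyl pyrophosphate synthase, was the most abundant member in untreated cells at 478, 467 and 486 TPM, and fell to 189, 201 and 185 TPM at 24 h and 182, 183 and 188 TPM at 72 h. It stayed near the same low level at both times, as did MVD, the decarboxylase of the branch, with means of 89.0 ± 9.33, 37.7 ± 2.88 and 40.7 ± 2.72 TPM. The differences between the THC times were -0.055 (95% confidence interval from -0.15 to 0.037) for FDPS and 0.11 (from -0.082 to 0.30) for MVD, and neither was called. After centring, FDPS was called lower at 72 h than at 24 h (-0.36, from -0.46 to -0.26), and MVD was again not called.

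Squalene and lanosterol formation, the first steps that serve sterols alone, fell as well. FDFT1, squalene synthase, was at 257, 261 and 242 TPM untreated, 107, 109 and 109 TPM at 24 h and 100.5, 98.1 and 87.0 TPM at 72 h. SQLE, the oxygen-dependent squalene epoxidase, was at 26.2, 27.9 and 27.7 TPM untreated, 6.86, 7.05 and 5.91 TPM at 24 h and 6.83, 6.80 and 6.83 TPM at 72 h, 24.2% and 25.0% of the untreated mean. LSS, which folds the epoxide into lanosterol, had means of 34.9 ± 1.43, 9.37 ± 0.143 and 13.2 ± 0.715 TPM. In each of these 3 genes the treated libraries lay below all untreated ones. The log2 changes at 24 h were -1.22 for FDFT1, -1.90 for SQLE and -1.79 for LSS (adjusted p = 2.55e-08, 4.92e-09 and 2.25e-09). At 72 h they were -1.40, -1.85 and -1.34 (adjusted p = 1.02e-08, 5.85e-09 and 1.49e-08).

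The 8 enzymes that turn lanosterol into cholesterol fell at both times, by amounts from 0.58 to 1.94 at 24 h and from 0.44 to 1.54 at 72 h. TM7SF2, a sterol C14 reductase, had the deepest fall of the 8 and the widest error. It stood at 16.1, 19.4 and 15.8 TPM untreated, 4.27, 3.56 and 3.37 TPM at 24 h and 6.09, 3.63 and 6.35 TPM at 72 h. The second 72 h library lay with the 24 h libraries, and the other 72 h libraries lay above them. MSMO1, the C4 methyl sterol oxidase, fell further with time, from 101, 107 and 107 TPM untreated to 68.7, 68.8 and 72.8 TPM at 24 h and 36.2, 43.1 and 42.5 TPM at 72 h, with no overlap between the 3 groups. Its partners in removing the C4 methyl groups took another course. NSDHL, the decarboxylating dehydrogenase, was at 37.3, 36.7 and 36.8 TPM untreated, 18.9, 19.7 and 20.2 TPM at 24 h and 29.1, 26.2 and 25.9 TPM at 72 h, so the 72 h libraries lay between the other groups. HSD17B7, the ketoreductase of the same step, had means of 41.1 ± 2.00, 16.6 ± 1.03 and 19.6 ± 1.13 TPM. Its pseudogene HSD17B7P2 had means of 4.66, 5.53 and 3.49 TPM, and the sources used here do not say how reads were shared between the copies. CYP51A1, the lanosterol demethylase, had means of 96.5 ± 7.42, 57.1 ± 2.75 and 61.3 ± 3.37 TPM, beside 2.21, 1.26 and 1.62 TPM for its pseudogene CYP51A1P2.

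EBP, a sterol isomerase that shifts the ring double bond, was at 171, 174 and 166 TPM untreated, 79.1, 77.0 and 76.0 TPM at 24 h and 80.9, 83.5 and 83.0 TPM at 72 h. DHCR7, which reduces 7-dehydrocholesterol in a last step of synthesis, was at 164, 167 and 161 TPM untreated, 86.4, 81.5 and 90.6 TPM at 24 h and 86.3, 80.8 and 88.4 TPM at 72 h. Their means were 45.4% and 48.4% of untreated for EBP and 52.5% and 52.0% for DHCR7, with no overlap between treated and untreated libraries. SC5D, the C5 desaturase just before DHCR7, fell by 0.69 ± 0.081 at 24 h and 0.54 ± 0.081 at 72 h, from a mean of 36.6 ± 2.60 TPM to 22.3 ± 0.466 and 24.9 ± 2.92 TPM. Adjusted p-values of the 8 late enzymes ran from 2.98e-09 (EBP) to 2.27e-05 (SC5D) at 24 h and from 5.29e-09 (EBP) to 1.45e-04 (SC5D) at 72 h.

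**Figure D3:**
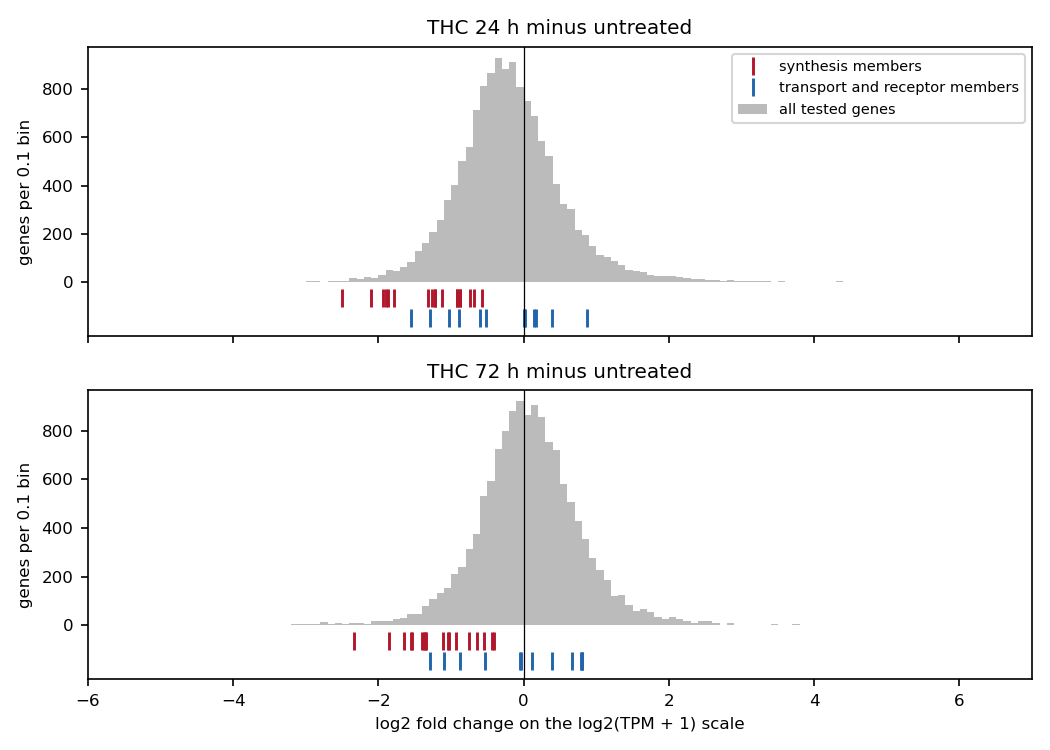
Number of tested genes (vertical axis) by log2 fold change in bins of 0.1 (horizontal axis), for THC 24 h above and THC 72 h below, with ticks under each histogram for the 18 synthesis genes (upper row) and the 12 tested transport and receptor genes (lower row). The synthesis ticks lie on the left side at both times, with medians of -1.22 and -1.22, while the transport ticks spread over both sides of 0.

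The starts of these genes were read for short motifs, because SREBF proteins bind sterol elements such as TCACNCCA and the factor NFY binds CCAAT beside them. RefSeq promoters of GRCh38.p14, each of 250 bases before and 50 after a transcript start, were matched for 27 of the 32 members, and ACAT2, FDFT1, SQLE, SCARB1 and ABCG1 have no entry. On either strand, CCAAT was found in 19 of the 27 members, 13 of 15 synthesis genes and 6 of 12 transport genes. It was found in 43.6% of tested genes and 39.7% of all genes with a promoter entry. In the 250 bases before the start alone, at least 2 CCAAT in 1 promoter were found for 9 of 15 synthesis genes (60.0%) and 4 of 12 transport genes, against 15.8% of tested genes. At least 3 were found for 7 of 15 synthesis genes and 2 of 12 transport genes, against 5.90% of tested genes. These latter counts were added after the matches were seen, and CCAATTGG counts as a match on each strand. The sterol element TCACNCCA (TGGNGTGA on the other strand) was found in 2 members, MVK and MSMO1, against 4.60% of tested genes and 4.8% of all genes with a promoter entry. The looser TCACNNCA was found in the same 2 members, against 13.4% of tested genes. GGGCGG, the box bound by SP1, was in 26 of 27 members against 77.2% of tested genes, and CACGTG in 3 against 12.6%. Neither TGATGNAA nor TGACGTCA, read by ATF factors, was in any of the 27, against 2.70% and 3.90% of tested genes. Median GC content was 67.7% in members and 67.0% in tested genes. A match is only a run of letters, and a missing match says nothing about a factor.

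The 7 synthesis promoters with at least 3 CCAAT are shown because they carry the densest matches of enzymes that fell at both times. Dense matches were not limited to genes that fell. The transport gene OSBP, whose RNA rose at both times, holds CCAAT at -224, -200, -183, -102 and -61 from its start. LIPA, whose RNA fell, holds it at -227, -126 and -50 from 1 of its starts. Each promoter shown is the 250 bases before 1 RefSeq start of GRCh38.p14, 5′ to 3′ on the strand of the gene, with matches of TCACNCCA and, on either strand, of CCAAT in capitals. MVK is at chr12:109573544-109573793 (+), MVD at chr16:88663092-88663341 (-), IDI1 at chr10:1048887-1049136 (-) and FDPS at chr1:155308616-155308865 (+). MSMO1 is at chr4:165327419-165327668 (+), NSDHL at chrX:152830813-152831062 (+) and EBP at chrX:48521558-48521807 (+).
MVK: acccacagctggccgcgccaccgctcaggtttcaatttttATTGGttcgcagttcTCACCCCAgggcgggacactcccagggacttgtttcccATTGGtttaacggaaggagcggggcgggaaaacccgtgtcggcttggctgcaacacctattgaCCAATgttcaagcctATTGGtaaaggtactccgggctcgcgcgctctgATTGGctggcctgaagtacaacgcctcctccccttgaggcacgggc
MVD: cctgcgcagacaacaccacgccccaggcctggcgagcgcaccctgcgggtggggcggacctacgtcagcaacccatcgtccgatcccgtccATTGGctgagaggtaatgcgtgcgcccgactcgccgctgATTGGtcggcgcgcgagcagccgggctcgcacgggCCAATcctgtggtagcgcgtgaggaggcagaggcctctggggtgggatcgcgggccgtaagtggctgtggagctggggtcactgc
IDI1: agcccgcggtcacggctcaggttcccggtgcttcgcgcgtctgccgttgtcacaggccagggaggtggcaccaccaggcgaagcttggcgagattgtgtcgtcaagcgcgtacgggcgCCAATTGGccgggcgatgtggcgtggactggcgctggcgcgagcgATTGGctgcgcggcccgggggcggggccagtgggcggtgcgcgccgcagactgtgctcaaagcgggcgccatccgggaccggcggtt
FDPS: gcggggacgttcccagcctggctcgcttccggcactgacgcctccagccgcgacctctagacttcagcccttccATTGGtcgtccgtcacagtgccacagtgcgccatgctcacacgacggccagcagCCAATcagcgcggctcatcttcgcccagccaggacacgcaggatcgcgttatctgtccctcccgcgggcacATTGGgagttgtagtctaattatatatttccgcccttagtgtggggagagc
MSMO1: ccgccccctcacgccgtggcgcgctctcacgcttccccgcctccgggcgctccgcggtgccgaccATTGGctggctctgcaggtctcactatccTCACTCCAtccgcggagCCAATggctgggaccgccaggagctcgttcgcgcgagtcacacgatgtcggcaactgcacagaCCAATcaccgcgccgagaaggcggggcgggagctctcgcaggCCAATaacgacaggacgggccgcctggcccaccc
NSDHL: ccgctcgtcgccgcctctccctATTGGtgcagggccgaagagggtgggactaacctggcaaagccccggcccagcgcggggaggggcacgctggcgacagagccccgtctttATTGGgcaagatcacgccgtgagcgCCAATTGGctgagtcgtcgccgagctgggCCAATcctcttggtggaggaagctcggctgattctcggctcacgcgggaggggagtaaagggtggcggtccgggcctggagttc
EBP: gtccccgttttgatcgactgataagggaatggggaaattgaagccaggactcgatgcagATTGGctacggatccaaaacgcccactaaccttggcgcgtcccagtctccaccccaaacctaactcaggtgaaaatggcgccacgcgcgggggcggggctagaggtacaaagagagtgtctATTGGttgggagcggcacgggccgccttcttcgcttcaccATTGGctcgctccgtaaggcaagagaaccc
MVK and NSDHL hold 5 matches of CCAAT each and MSMO1 holds 4, and the sterol element begins 195 bases before the start in MVK and 156 bases before it in MSMO1. These 2 genes with the element differed in course, MVK being less low at 72 h than at 24 h and MSMO1 lower.

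The receptors that bring lipoproteins into the cell were lower at 24 h and diverged by 72 h. VLDLR, the very low density lipoprotein receptor, stood at 29.2, 30.9 and 29.7 TPM untreated, 13.7, 14.5 and 14.1 TPM at 24 h and 28.4, 29.0 and 29.0 TPM at 72 h. It fell by 1.03 ± 0.047 at 24 h (adjusted p = 2.45e-08), and its 72 h value, -0.052 with a 95% confidence interval from -0.16 to 0.05, was not called (adjusted p = 0.339). After centring or rescaling without mitochondrially encoded genes this value was -0.14 and was called. SCARB1, the scavenger receptor that exchanges cholesterol with HDL, was at 24.7, 27.8 and 27.9 TPM untreated, 19.1, 17.3 and 15.6 TPM at 24 h and 9.33, 9.66 and 12.2 TPM at 72 h, a stepwise fall with no overlap between groups. LRP8, a further receptor of the same family as VLDLR, fell by 0.88 at 24 h and 0.53 at 72 h (adjusted p = 5.72e-06 and 2.77e-04), from 20.1 ± 0.616 TPM to 10.4 ± 1.08 and 13.6 ± 1.46 TPM.

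In the lysosome, the enzyme that frees cholesterol fell while both carriers that export it rose. LIPA, lysosomal acid lipase, was at 72.8, 81.0 and 79.5 TPM untreated, 24.3, 26.7 and 26.6 TPM at 24 h and 42.8, 42.7 and 39.5 TPM at 72 h. It fell by 1.55 ± 0.060 and 0.88 ± 0.060 (adjusted p = 7.66e-09 and 4.31e-07). The RefSeq extent of LIPA overlaps 8 other genes, among them IFIT1, IFIT2, IFIT3 and IFIT5 of the interferon response, so its reads may not all be its own. NPC1, the membrane protein through which cholesterol leaves the lysosome, stood at 33.2, 36.9 and 35.3 TPM untreated, 62.7, 66.7 and 64.9 TPM at 24 h and 62.2, 59.6 and 62.4 TPM at 72 h. All its treated libraries lay above all untreated ones, and it rose by 0.87 ± 0.050 and 0.79 ± 0.050 (adjusted p = 1.24e-07 and 2.78e-07). NPC2, the soluble carrier that hands cholesterol to NPC1, was at 163, 159.6 and 181 TPM untreated, 177, 189 and 187 TPM at 24 h and 296, 289 and 296 TPM at 72 h. The 24 h libraries overlapped the untreated ones and the 72 h libraries lay above both. Its rise was 0.14 at 24 h (adjusted p = 0.0328), and 0.81 at 72 h (adjusted p = 2.71e-07). The 24 h call was lost without untreated replicate 1 or 2 or 24 h replicate 2 or 3, without the expression filter and after rescaling without mitochondrially encoded genes.

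Among genes that store sterol or carry it between membranes, OSBP rose, STARD4 fell and SOAT1 showed no called change. OSBP, which trades cholesterol for phosphoinositide at contacts of the endoplasmic reticulum and Golgi, was at 34.6, 37.6 and 36.2 TPM untreated, 45.0, 50.9 and 46.9 TPM at 24 h and 62.7, 64.7 and 63.5 TPM at 72 h, each group above the one before. It rose by 0.39 ± 0.054 and 0.80 ± 0.054 (adjusted p = 7.91e-05 and 4.20e-07). STARD4, a soluble sterol carrier, was at 30.5, 33.6 and 29.7 TPM untreated, 10.8, 12.5 and 13.5 TPM at 24 h and 13.5, 15.3 and 13.5 TPM at 72 h, all treated libraries being below all untreated ones. It fell by 1.29 and 1.09 (adjusted p = 3.37e-07 and 1.25e-06), within the range of the synthesis genes. STARD3, which tethers late endosomes to the endoplasmic reticulum, had means of 73.9 ± 2.73, 83.2 ± 6.66 and 97.5 ± 3.65 TPM. Its rise at 24 h, 0.17 (adjusted p = 0.0284), was lost without untreated replicate 1 or 2 or 24 h replicate 1 or 3 and under the same changes of filter and scale, and its 72 h rise was 0.40 (adjusted p = 1.77e-04). SOAT1, which esterifies cholesterol for storage, stayed between 20.0 and 24.1 TPM in all 9 libraries. Its changes were 0.012 (from -0.16 to 0.18) at 24 h and -0.042 (from -0.21 to 0.13) at 72 h, neither of them called. After centring, its 24 h value was 0.23 and was called.

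The liver X receptors showed no shared direction, and their export targets were too low to be tested. NR1H3, liver X receptor alpha, was at 14.4, 17.2 and 14.4 TPM untreated, 10.7, 10.3 and 10.2 TPM at 24 h and 15.4, 15.8 and 18.7 TPM at 72 h, the 24 h libraries alone standing below. It fell by 0.51 at 24 h (adjusted p = 3.42e-04), and its 72 h value of 0.11 was not called (adjusted p = 0.269). NR1H2, liver X receptor beta, was at 64.2, 68.8 and 62.8 TPM untreated, 81.3, 53.5 and 64.8 TPM at 24 h and 106, 98.6 and 107 TPM at 72 h. Its 24 h libraries were spread on both sides of the untreated ones, and it rose by 0.66 at 72 h (adjusted p = 5.88e-04). The exporters were near 0 throughout. ABCG1 was listed at 0.178, 0.290 and 0.117 TPM untreated, 0.0777, 0.0225 and 0.0326 TPM at 24 h and 0.116, 0.107 and 0.0625 TPM at 72 h, and ABCA1 reached at most 0.0229 TPM in any library. Neither was tested.

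Between the THC times, 15 of the 30 members rose and 4 fell, where 54.9% of all tested genes rose and 17.8% fell. With each library centred on its median the members split as 10 higher and 12 lower, and all tested genes as 4176 higher and 5217 lower, so only differences that kept their side are described here. MVK rose by 1.11 ± 0.11 from 24 h to 72 h (adjusted p = 9.57e-06), the only member to change at least 2-fold, as 8.85% of tested genes did upward. VLDLR rose by 0.98 ± 0.047 (adjusted p = 1.11e-07), LIPA by 0.67, NPC2 by 0.67, NR1H2 by 0.65, NR1H3 by 0.63 and IDI1 by 0.55. PMVK, LSS and NSDHL rose by 0.47, 0.45 and 0.44. MSMO1 fell by 0.78 ± 0.066 (adjusted p = 3.17e-06), HMGCS1 by 0.73 ± 0.057 (adjusted p = 1.90e-06), SCARB1 by 0.69 ± 0.10 (adjusted p = 1.63e-04) and FDFT1 by 0.19. All 14 of these differences kept their direction and call after centring. The summed level of the synthesis genes was 884 ± 8.89 TPM at 24 h and 882 ± 8.97 TPM at 72 h (SD, n = 3 each), while that of the 14 transport genes was 602 ± 20.6 TPM untreated, 559 ± 8.14 TPM at 24 h and 767 ± 11.8 TPM at 72 h. NPC2 alone made up 168, 184 and 294 TPM of the transport sums. The 12 tested transport genes had a median change of 0.035 at 72 h against untreated, with 5 called higher and 4 lower.

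**Figure D4:**
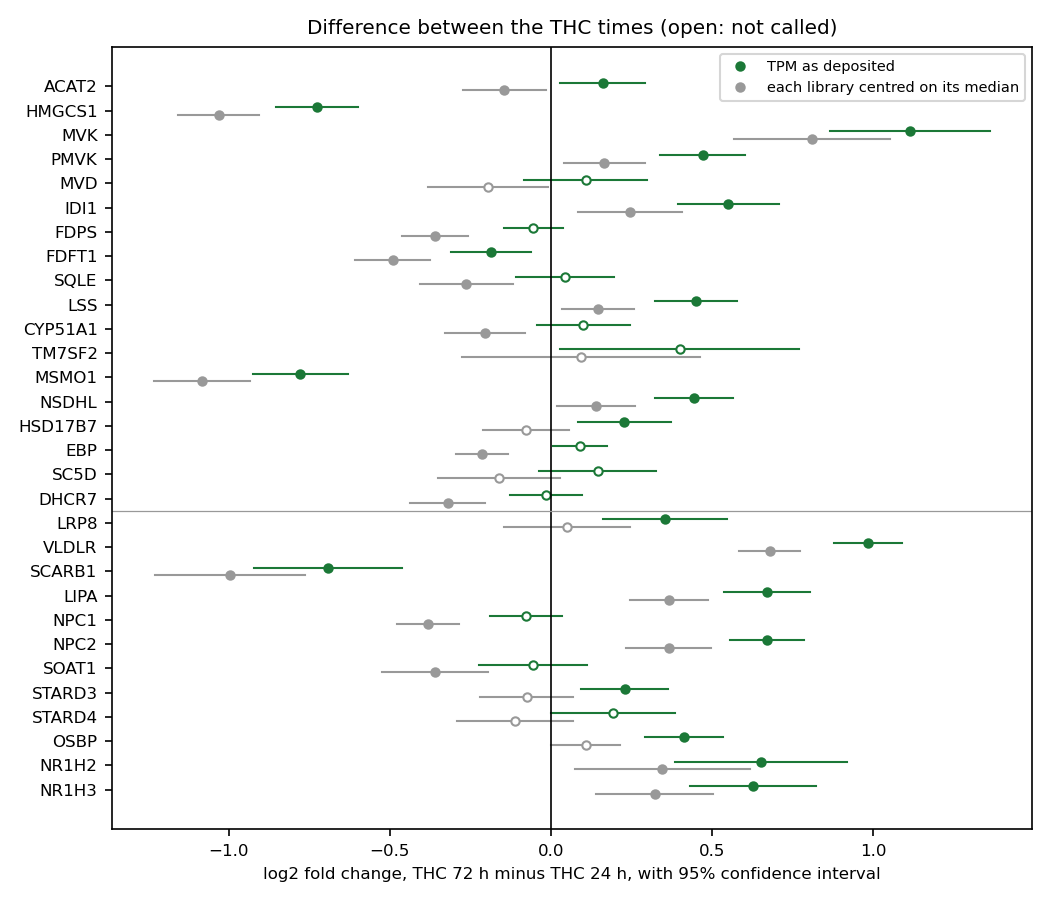
Log2 fold change of THC 72 h against THC 24 h (horizontal axis) with 95% confidence intervals for the 30 tested members in pathway order, from TPM as deposited (green) and with each library centred on its median (grey), open circles marking differences that were not called. MVK and VLDLR lie farthest to the right and MSMO1, HMGCS1 and SCARB1 farthest to the left under both scalings, while 9 members change side.

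Several members start within 1000 bp of a gene on the other strand, and these neighbours were read because a shared start can carry reads of both. Of 15 such neighbours, 9 were tested, of which 7 fell and 2 rose at 24 h (51.7% and 25.0% of all tested genes), and 5 fell and 3 rose at 72 h (33.0% and 40.1%). MMAB, an enzyme of vitamin B12 metabolism whose start lies 290 bp from that of MVK, fell by 1.71 at 24 h and 1.25 at 72 h (adjusted p = 7.47e-09 and 6.47e-08). Its levels were 29.1, 30.2 and 30.0 TPM untreated, 8.62, 8.60 and 8.02 TPM at 24 h and 13.1, 11.2 and 11.5 TPM at 72 h, all treated libraries below all untreated ones. CETN2, a centrin opposite NSDHL, fell by 1.29 at 24 h and 0.35 at 72 h. In contrast, the antisense RNA VLDLR-AS1 rose against untreated cells, where VLDLR did not. Its levels were 0.589, 0.297 and 0.464 TPM untreated, 1.75, 1.49 and 1.81 TPM at 24 h and 7.80, 7.16 and 7.83 TPM at 72 h. From 24 h to 72 h both RNAs rose. IFIT5, an interferon-induced gene 111 bp from the most upstream start of LIPA, rose by 0.96 and 0.57. The library kit keeps strand, but the sources used here do not say whether strand was used in quantification, so values of antisense and overlapping pairs are uncertain.

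Genes that control the pathway fell in part. Of 13 genes of SREBF control, 10 fell and 0 rose at 24 h, where 51.7% of all tested genes fell and 25.0% rose. At 72 h 6 fell and 1 rose, where 33.0% fell and 40.1% rose, and the medians of the list were -0.52 at 24 h and -0.14 at 72 h. SREBF1 fell by 1.17 and 1.31, and INSIG1, itself a target of SREBF proteins, fell by 0.69 at 24 h and 2.27 at 72 h, to 16.5, 21.2 and 19.9 TPM from 91.7, 101 and 95.5 TPM. ERLIN1, of a complex at the endoplasmic reticulum that limits SREBF activation, fell by 1.13 at 24 h. Its means were 63.6 ± 4.63 TPM untreated, 28.4 ± 0.455 TPM at 24 h and 36.9 ± 2.14 TPM at 72 h. RNF139, a ubiquitin ligase of the endoplasmic reticulum, was the gene that rose at 72 h, by 0.31.

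The branches that leave the pathway at farnesyl pyrophosphate for other isoprenoids held genes that rose and genes that fell. Of 15 such genes 5 rose and 8 fell at 24 h, shares near the 25.0% and 51.7% of all tested genes. At 72 h 7 rose and 3 fell, beside 40.1% and 33.0%. RABGGTB, a subunit of the enzyme that attaches geranylgeranyl groups to RAB proteins, rose by 1.15 and 0.65, and DHDDS, of dolichol synthesis, by 0.73 and 1.18. FNTA, the alpha subunit of farnesyltransferase, rose by 0.78 at 72 h. Its means were 39.2 ± 1.18 TPM untreated, 55.4 ± 3.93 TPM at 24 h and 68.0 ± 2.77 TPM at 72 h. GGPS1, which makes geranylgeranyl pyrophosphate, fell by 1.10 at 24 h and was at 0.14 at 72 h, which was not called. ICMT, which methylates prenylated proteins, fell by 1.07 and 0.52, and COQ2, of ubiquinone synthesis, by 0.73 and 0.75.

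Of 19 other sterol transfer genes tested, 5 rose and 12 fell at 24 h, beside 25.0% and 51.7% of all tested genes, and 5 rose and 9 fell at 72 h, beside 40.1% and 33.0%. GRAMD1A, which moves cholesterol from the plasma membrane to the endoplasmic reticulum, rose by 1.31 and 0.50, from 83.9, 90.4 and 89.6 TPM to 237, 206 and 218 TPM at 24 h and 126, 116 and 133 TPM at 72 h. Its relative GRAMD1C fell by 1.49 and 0.69. CAV1, the cholesterol-binding coat protein of caveolae, fell by 1.50 at 24 h and fell by 2.07 at 72 h, from 235 ± 8.97 TPM to 82.5 ± 2.21 and 55.3 ± 2.11 TPM. OSBPL6 rose by 1.08 and 0.96. NCEH1, a cholesteryl ester hydrolase, fell by 0.88 at 72 h and was also low at 24 h. Its means were 67.5 ± 4.87 TPM untreated, 31.6 ± 2.69 TPM at 24 h and 36.2 ± 1.56 TPM at 72 h. Of 9 genes tested among 14 oxysterol enzymes, liver X receptor targets and cofactors, 1 rose and 6 fell at 24 h, and 4 rose and 4 fell at 72 h, beside the same shares of all tested genes. LPCAT3, a phospholipid acyltransferase, fell by 1.84 and 1.87, and MYLIP, a ubiquitin ligase for lipoprotein receptors, by 1.34 and 1.45. RXRB, the partner receptor, rose by 0.51 at 24 h, with means of 36.7 ± 0.715 TPM untreated, 52.8 ± 2.96 TPM at 24 h and 51.7 ± 1.57 TPM at 72 h. HSD3B7, a bile acid enzyme, rose by 1.11 at 72 h, with means of 1.60 ± 0.110, 1.53 ± 0.185 and 4.62 ± 0.343 TPM in the same order.

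At most starts of the members, peaks of accessible chromatin and of H3K4me3 were listed in all groups, as they were at most starts of tested genes. Of the 27 members with a RefSeq start, 26 had an ATAC peak within 1000 bp in 3 of 3 untreated libraries, 25 at 24 h and 25 at 72 h. Over the 10084 tested genes with a start the shares were 93.9%, 91.4% and 80.5%. An H3K4me3 peak was there in 3 of 3 libraries for 26 members in untreated and in THC cells, beside 94.0% and 94.3% of genes. None of these 27 members went from a peak in all untreated libraries to none of the THC libraries of a time, a course taken by 0.179% of genes in ATAC at 24 h and 0.248% at 72 h, and by 0.0% in H3K4me3. VLDLR was listed in 2 of 3 ATAC libraries at 24 h and LRP8 in 2 of 3 at 72 h. ABCA1, whose RNA was near 0, was listed in 1 untreated ATAC library and in no H3K4me3 library. Peaks were called per library, so a peak that is not listed is not shown to be absent, and the ATAC lists ran from 38495 peaks (72 h replicate 2) to 150884 (untreated replicate 1) against 30098 to 35879 for H3K4me3. Counting only ATAC peaks with a deposited -log10 q of at least 5, members listed in 3 of 3 libraries were 23 of 27 untreated, 21 at 24 h and 15 at 72 h. The shares of all tested genes with a start were then 77.3%, 61.9% and 26.6%.

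For members with no promoter entry both gene ends were searched. ACAT2, FDFT1 and SQLE had ATAC and H3K4me3 peaks at their lower end, and SCARB1 at its upper end, in 3 of 3 libraries of every group. At the lower end of ABCG1 an ATAC peak was listed in 3 untreated libraries, 0 at 24 h and 1 at 72 h, and an H3K4me3 peak in 1 untreated and 3 THC libraries. That end is at position 42199689 of chromosome 21 (GRCh38).

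The bases covered by peaks within 2000 bp of the start overlapped between groups for most members. The window holds 4001 bases, so longer peaks are cut at its edges. H3K4me3 covered 3803, 3769 and 3887 bases of it at HMGCS1 in untreated and 3939, 4001 and 3939 in THC libraries. This cover was longer in every THC library although HMGCS1 RNA fell. At TM7SF2 it was 3777, 3666 and 3946 bases untreated and 3566, 3580 and 3626 with THC. At STARD3 it was 3692, 3638 and 3315 untreated and 3213, 3236 and 2925 with THC. Both were shorter in every THC library. Whole peaks at HMGCS1 were 4339, 4431 and 4774 bases wide untreated and 4661, 4996 and 4750 with THC. At TM7SF2 they were 4540, 4702 and 5434 untreated and 8186, 4385 and 4494 with THC. In whole width the groups of these 2 genes thus overlapped, and STARD3 stayed shorter. The RNA of TM7SF2 fell and that of STARD3 rose at 72 h. By cover within the window, 1 was longer and 2 were shorter of 27 members, and of all genes 8.13% were longer and 2.65% shorter in this sense. In ATAC, NPC2 was shorter at 24 h (background 5.27%), SOAT1 shorter (7.69%) and STARD4 and NR1H3 longer (1.66%) at 72 h. Near some of these members another gene starts on the other strand. ISCA2 starts 253 bp from NPC2, STARD4-AS1 309 bp from STARD4, ACP2 81 bp from NR1H3 and LOC124903998 146 bp from STARD3. Their cover may thus not belong to the member alone. STARD4 had 581, 571 and 591 covered bases untreated and 757, 785 and 607 at 72 h. Longer cover does not mean more signal, and shorter cover does not mean less. At NPC2 the deposited fold enrichment of the peak over the start was 10.4, 10.9 and 10.0 untreated and 11.7, 10.7 and 12.2 at 24 h. The deposited fold enrichment of the STARD4 peak over the start was 11.3, 10.7 and 11.4 untreated and 7.78, 5.86 and 10.2 at 72 h. For NR1H3 it was 5.89, 4.43 and 5.99 untreated and 3.64, 4.00 and 4.58 at 72 h. With 3 libraries against 3, an exact permutation test cannot give a two-sided p below 0.1, so none is given. Median ATAC coverage of the 27 members was 583 to 771 bases in untreated libraries, 481 to 716 at 24 h and 497 to 736 at 72 h, and over all genes 608 to 824, 544 to 810 and 403 to 765.

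**Figure D5:**
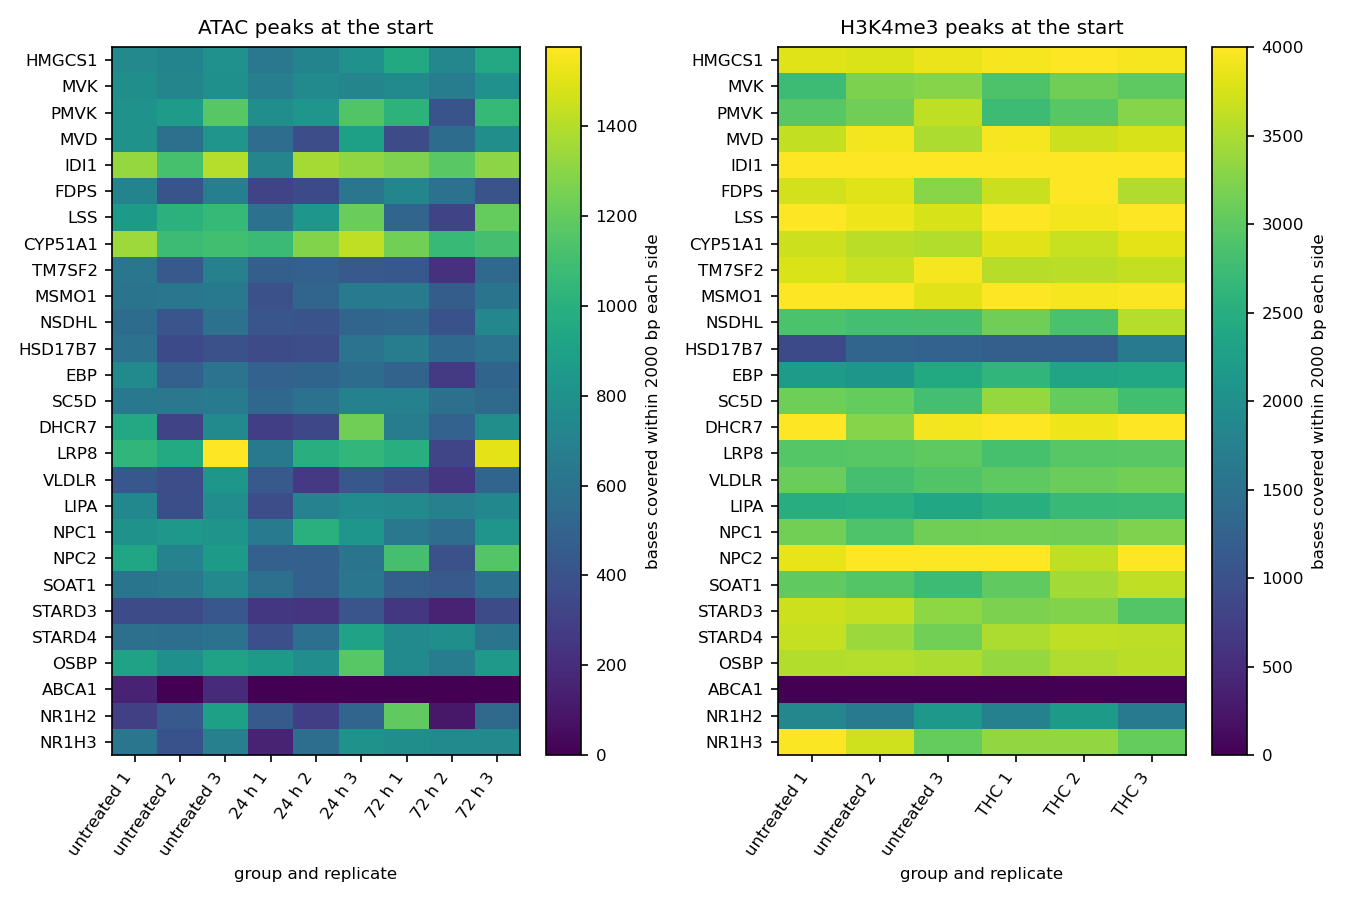
Bases covered by ATAC peaks (left) and H3K4me3 peaks (right) within 2000 bp on each side of the start of the 27 members with a RefSeq start (rows), in each library (columns), with the colour scale in bases. ABCA1 is the row at or near 0 in both panels, and in ATAC the column of 72 h replicate 2, the library with the fewest peaks, is darker than its neighbours in many rows.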

How the data were processed

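Files of 24 samples were used and samples were grouped by their labels. The submitters' processing notes list the build GRCh38 and, with no roles, MACS2 2.2.7.1, MACS3, Bowtie2, Salmon, Picard, SAMtools, FastQC and Trim Galore. The authors deposited TPM per Ensembl gene, with a total of 1000000 in each library. Since depth cannot be read from TPM, no count model was fitted. The members and lists were chosen with earlier results of these data known.

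Expression was modelled with limma 3.58.1 (R 4.3.3) on log2(TPM + 1), in 1 model of 3 groups of 3 libraries (eBayes with trend), for genes with a mean of at least 1 TPM, with Benjamini-Hochberg adjustment over all of them. The script was checked on simulated data. The text names all 32 members, neighbouring genes, and promoters by their motifs. From the other lists it names a selection of the larger called changes, and some genes with changes as large, such as OSBPL7 at 72 h, are not described.

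Peaks were called by the authors in each library separately. The fold enrichment (a ratio), the -log10 p and -log10 q and the score are the authors' deposited values per peak. Only -log10 q was used, as a filter, and fold enrichment is quoted for STARD4, NR1H3, NPC2, HSD17B7 and MVK alone. The sources used here do not give the caller of the ATAC lists, read shifting, duplicate removal or the control for H3K4me3. Peaks on chromosomes 1 to 22 and X overlapping 1000 bp on either side of a RefSeq start (GRCh38.p14) by at least 1 base counted as listed. Motifs were searched in both strands with Python 3.11.15. Some genes of the pathway are not reported here. The alternatives changed the pseudocount, filter, scaling, samples in the fit, window, overlap and peak threshold, and left out each replicate in turn.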

Additional observations from a re-analysis of the deposited data

Results flagged for a closer look

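For 19 members the change after THC differed between 24 h and 72 h by limma's test of that difference (adjusted p under 0.05, 3 libraries at each time), 15 of 30 being higher and 4 lower at 72 h where 54.9% of all tested genes were higher and 17.8% lower. The untreated libraries do not enter this difference. On the log2(TPM + 1) scale, 72 h minus 24 h, MVK stood at 1.11, VLDLR at 0.98, LIPA at 0.67, NPC2 at 0.67, NR1H2 at 0.65, NR1H3 at 0.63 and IDI1 at 0.55. PMVK stood at 0.47, LSS at 0.45 and NSDHL at 0.44. HMGCS1 at -0.73, MSMO1 at -0.78, SCARB1 at -0.69 and FDFT1 at -0.19 were lower at 72 h than at 24 h. These 14 kept their direction and call with each library centred on its median. The other 5 were OSBP at 0.41, LRP8 at 0.35, STARD3 at 0.23, HSD17B7 at 0.23 and ACAT2 at 0.16, and their calls were lost or their direction turned by centring. No group had the 4 libraries needed to look for a single library far from the rest.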

How the results depend on the processing

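No synthesis gene lost its call or changed direction against untreated cells at 24 h or 72 h under any alternative. The 4 members higher at 24 h became 2 without the expression filter and after rescaling without mitochondrially encoded genes, and 2 to 4 with a replicate left out (2 without untreated replicate 1 or 2 or 24 h replicate 3), the calls lost being those of NPC2 and STARD3. With each library centred on its median, the shifts of the 3 comparisons were 0.22 (24 h), -0.087 (72 h) and -0.31 (72 h against 24 h). All tested genes then split as 4954 higher and 5128 lower at 24 h, 4790 and 5347 at 72 h, and 4176 and 5217 between the THC times, where the members lower rose from 4 to 12. Between the THC times, centring turned the sign of 9 members. Called under at least 1 scaling were ACAT2 (-0.14), SQLE (-0.26), CYP51A1 (-0.20), HSD17B7 (-0.077), EBP (-0.21) and STARD3 (-0.075), and called under neither were MVD (-0.20), SC5D (-0.16) and STARD4 (-0.11). Without a turn of sign, centring also gave calls as lower to FDPS (-0.36), DHCR7 (-0.32), NPC1 (-0.38) and SOAT1 (-0.36). With a deposited -log10 q of at least 5, members with an ATAC peak in 3 of 3 libraries at 72 h were 15 in place of 25, and tested genes with such a peak 26.6% in place of 80.5%. The cause was not tested. The other counts, 235 of 244, stayed within 1.5 times of their values. Of 2304 values of single genes, 22 lost a call and 19 gained one with the sign kept. A further 6 turned sign and were called before or after the change. Calls of NPC2 and STARD3 at 24 h and of ACAT2 between the THC times were the least stable. For NPC2 and STARD3 at 24 h, 13 values lost the call, and not every such alternative is named above.

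Replicate numbers gave no pairing: correlations of same-numbered libraries ran from -0.199 to 0.252, and libraries did not all correlate best with their own number. With the replicate block, 10577, 10077 and 10032 genes were called in place of 10544, 10056 and 9991, and among members only STARD4 between the THC times changed its call (0.19, adjusted p = 0.0465, range over its alternatives 0.0273 to 0.241). Depth is unknown for TPM, and 3 libraries a group limit the precision.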
